A study of Rattus norvegicus with 24 samples.

Results

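Oxidative phosphorylation is carried out in the inner mitochondrial membrane by 5 protein complexes. The members described here are all probes of a rat expression array whose gene symbol starts with Nduf (complex I), Uqcr (complex III), Cox4, Cox5, Cox6, Cox7 or Cox8 (complex IV) or Atp5 (complex V), or is Sdha, Sdhb, Sdhc or Sdhd (complex II). The rule took 69 of 22523 probes, 1 probe for each of 69 genes among 13337 named genes. Of these, 37 belong by name to complex I, 4 to complex II, 4 to complex III, 11 to complex IV and 13 to complex V. A prefix is not a function: 60 of the 69 encode structural subunits, while 7 encode assembly factors of complex I, 1 (Cox7a2l) encodes a factor of respiratory supercomplexes, and 1 (Ndufs6-ps1) is listed as a pseudogene in the reference gene table.

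The study used 24 Illumina RatRef-12 beadchip arrays to profile cortical total RNA of male Wistar rats, in 6 groups of 4 arrays. Sham rats had the same opening of the skull under ketamine and xylazine but no occlusion, in vehicle rats a middle cerebral artery was occluded permanently and 80% dimethyl sulfoxide (DMSO) was injected into a cerebral ventricle, and treatment rats had the occlusion and 30 mM of the Aurora kinase inhibitor ZM447439 in 80% DMSO. Each group was collected at 8 h and at 24 h. The design text gives no injection for sham rats, the occlusion is described on the left and the tissue as right cortex, and whether the 4 arrays of a group are 4 animals is not stated.

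Complex I takes electrons from NADH and complex II takes them from succinate, and both pass them to ubiquinone. Complex III hands them on to cytochrome c, complex IV to oxygen, and complex V (ATP synthase) uses the proton gradient built by complexes I, III and IV to make ATP. Neurons depend heavily on this pathway, and loss of blood flow stops it by removing oxygen. The genes measured here are nuclear. The mitochondrial genome encodes further subunits of complexes I, III, IV and V, which were not analysed here. In bulk tissue, fewer cells of a type and less RNA per cell cannot be told apart.

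The table matched to samples held 1 probe profile per time point. After each array was divided by its own median, no member departed from the profile of its time by more than 2.89e-07 on the log2 scale over the 12 arrays at 8 h, or by 2.05e-07 over the 12 arrays at 24 h. A member's level below is its intensity in multiples of the array median, 1 value per time point, and the difference is the log2 of the 24 h level over the 8 h level. There is no replicate error on these values and no test, and sham, vehicle and treatment rats could not be compared gene by gene. All groups of a time point share its profile, so the difference cannot be assigned to sham, vehicle or treatment rats. Array medians ran from 65.3 to 90.1 at 8 h and from 76.8 to 115 at 24 h.

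Promoter sequences of 5 members are shown first. They are the 4 members that differed by at least 1.2-fold, and Atp5f1b, which had the lowest difference in complex V. Ndufs3 and Cox8a passed 1.2-fold only with arrays divided by their median, and under no other scaling described below. Each window runs from 250 bases before to 50 bases after the annotated start in RefSeq, build GRCr8, 5′ to 3′ on the gene's strand. Capitals mark matches to short motifs of factors known for mitochondrial genes: NRF1 (GCGC and GCGC with any 2 bases between), the GA-binding protein GABP (CCGGAAG), YY1 (AANATGGC), the estrogen-related receptors ERR (TNAAGGTCA), SP1 (GGGCGG) and the TATA box (TATAAA), each searched on both strands.
Ndufs3 (chr3:97339605-97339904, minus strand): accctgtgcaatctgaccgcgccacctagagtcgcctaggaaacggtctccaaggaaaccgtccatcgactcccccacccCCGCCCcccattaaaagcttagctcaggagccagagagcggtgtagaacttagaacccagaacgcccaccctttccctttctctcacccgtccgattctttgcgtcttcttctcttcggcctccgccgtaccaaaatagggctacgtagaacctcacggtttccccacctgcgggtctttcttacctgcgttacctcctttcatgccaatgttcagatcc
Cox8a (chr1:213833574-213833873, minus strand): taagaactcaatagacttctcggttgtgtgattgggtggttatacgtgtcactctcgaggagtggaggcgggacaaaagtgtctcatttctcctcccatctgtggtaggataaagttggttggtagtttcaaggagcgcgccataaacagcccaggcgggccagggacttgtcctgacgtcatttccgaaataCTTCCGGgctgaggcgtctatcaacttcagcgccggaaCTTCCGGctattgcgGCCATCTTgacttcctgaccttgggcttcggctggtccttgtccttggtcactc
Ndufaf4 (chr5:43401545-43401844, plus strand): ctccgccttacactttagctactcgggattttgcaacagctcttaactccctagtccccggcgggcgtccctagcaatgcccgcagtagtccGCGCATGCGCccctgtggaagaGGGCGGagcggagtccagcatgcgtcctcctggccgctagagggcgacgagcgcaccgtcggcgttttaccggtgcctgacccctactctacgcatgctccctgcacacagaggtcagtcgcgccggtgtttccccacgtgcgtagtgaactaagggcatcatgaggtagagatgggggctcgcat
Ndufaf1 (chr3:127103971-127104270, minus strand): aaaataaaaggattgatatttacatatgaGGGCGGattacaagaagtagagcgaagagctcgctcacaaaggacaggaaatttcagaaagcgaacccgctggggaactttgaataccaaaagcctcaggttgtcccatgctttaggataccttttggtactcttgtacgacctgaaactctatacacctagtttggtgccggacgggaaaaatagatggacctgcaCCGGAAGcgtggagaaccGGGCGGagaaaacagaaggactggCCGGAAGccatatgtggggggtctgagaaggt
Atp5f1b (chr7:1099808-1100107, plus strand): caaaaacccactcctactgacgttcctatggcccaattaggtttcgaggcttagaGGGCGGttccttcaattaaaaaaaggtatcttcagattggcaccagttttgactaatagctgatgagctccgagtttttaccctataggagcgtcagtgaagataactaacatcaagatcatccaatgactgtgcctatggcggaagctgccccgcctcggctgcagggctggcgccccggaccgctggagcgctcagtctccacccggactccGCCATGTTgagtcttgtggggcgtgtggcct
Ndufs3 had 1 match, to SP1. Cox8a had 3, a pair for GABP and 1 for YY1, the latter starting 4 bases before the annotated start. Ndufaf4 had 1 NRF1 and 1 SP1 match. Ndufaf1 had 4 matches, a pair for GABP and a pair for SP1, and Atp5f1b had 1 YY1 and 1 SP1 match. No 2 matches overlapped in these windows.

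Promoter windows were found for 60 of the 69 genes. The YY1 letters stood in 20 of the 60 windows (33.3%), against 7.80% of 27457 genes with a window, 8.41% of 19005 protein-coding genes and 11.9% of 3651 genes with a probe among the brightest 25% of all probes. The GABP letters stood in 17 (28.3%), against 9.63% of all genes, 11.6% of protein-coding genes and 20.9% of the brightest 25%. NRF1 letters were found in 16 (26.7%), against 6.34%, 8.17% and 15.2%. At least 1 of these 3 motifs stood in 41 windows (68.3%), against 20.8% of all, 24.2% of protein-coding and 39.7% of the brightest genes. SP1 letters were about as frequent as in protein-coding genes (27 windows, 45.0% against 44.1%, with 36.0% of all genes) and less frequent than in the brightest 25% (66.3%). ERR letters were in 3 windows (5.0%, against 1.26% of all genes and 0.548% of the brightest genes), and the TATA letters in 4 (6.67%, against 15.3% of all genes and 7.15% of the brightest genes). These shares are descriptions, and a match is not a binding site.

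The differences of genes with and without the letters were compared without a test. The median difference was -0.05 for the 41 genes with NRF1, GABP or YY1 letters and -0.05 for the 19 without them. Of the 41, 27 were lower at 24 h, and of the 19, 13 were lower. By single motif, the medians with and without the letters were -0.06 and -0.05 for NRF1, -0.05 and -0.05 for GABP and -0.05 and -0.05 for YY1. They were -0.06 and -0.04 for SP1, -0.06 and -0.05 for TATA (4 genes with the letters) and 0.02 and -0.05 for ERR (3 genes with the letters, 1 of them lower).

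**Figure D1:**
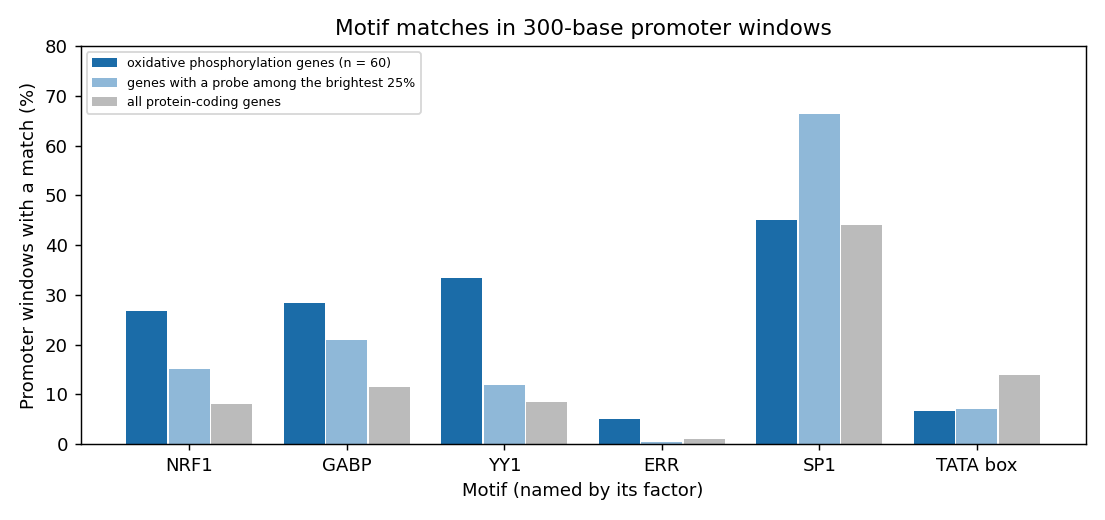
Share of promoter windows (%) with a match to each of 6 motifs, in the 60 oxidative phosphorylation genes with a window, in genes with a probe among the brightest 25% of all probes, and in all protein-coding genes. YY1 letters stand in 33.3% of the members' windows and in 8.41% of those of protein-coding genes.

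Levels of the members were high in both profiles. Of the 69, 65 had a mean level above the median of all probes and 59 lay among the brightest 25% of probes by mean level. The levels ran from 0.721 to 312 times the array median at 8 h and from 0.725 to 283 times at 24 h. A probe's brightness also depends on the probe, so these levels give no order of amounts between genes. Several probes stood at or below the array median although their genes are widely expressed. The probe for Ndufs4, an accessory subunit of complex I, was among the dimmest of the array (0.721 and 0.725 times the median at 8 h and 24 h, percentile 3.15 of all probes by mean level). Those for Ndufb4 (0.986 and 0.902) and Atp5mc3 (0.905 and 0.950) lay near the median. No detection value was matched to these probes, so whether they carry signal is not known, and their differences are compressed if they hold mostly background.

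**Figure D2:**
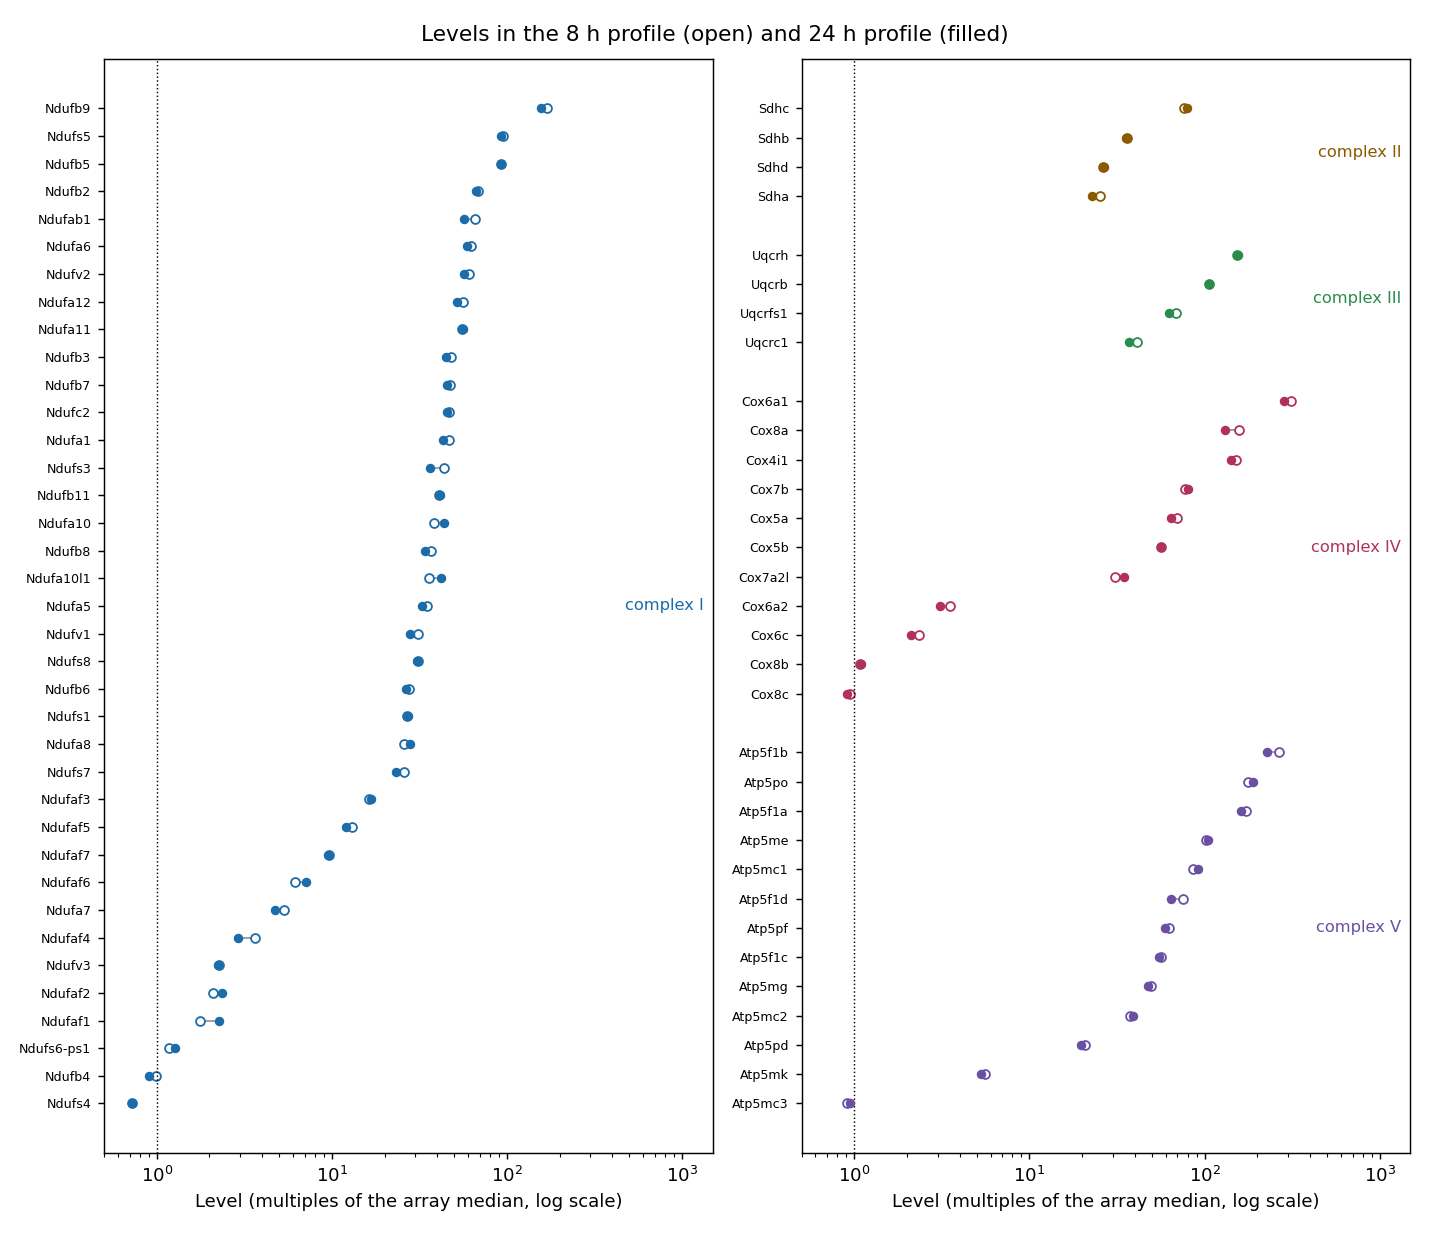
Levels of the 69 genes by complex, in multiples of the array median on a log scale, in the 8 h profile (open circles) and the 24 h profile (filled circles), with the dotted line at the array median. Genes are sorted within a complex by the 8 h level of their probe, which is no order of amounts. Open and filled circles lie close together for nearly all genes, and the widest gaps are those of Ndufaf1 and Ndufaf4.

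The 24 h and 8 h profiles held the members at nearly the same levels. At least 1.2-fold differences were found for 4 of 69: Ndufaf1 was higher at 24 h (1 gene, where 3.62% of all probes were called in that direction) and Ndufaf4, Ndufs3 and Cox8a were lower (3 genes, 4.35% of members, where 6.13% of all probes were called). These calls depended on the scaling: quantile normalization gave 3 higher and 1 lower, the 75th percentile 3 and 1, cyclic loess 3 and 0, and subtraction of the 1st percentile 2 and 2. Ndufaf1 passed 1.2-fold under all 4 of them and Ndufaf4 under 3, while Ndufs3 and Cox8a passed under none. The share of all probes past 1.2-fold was not computed under these 4 scalings, so their counts have no background beside them. No member reached 1.5-fold in either direction, against 0.617% of all probes higher and 0.497% lower, or 1.58% and 1.56% of the brightest 25% of probes. Of the members, 65 (94.2%) lay within 0.25 log2 of no difference, as did 89.3% of all probes. Among the 59 members in the brightest 25%, 56 (94.9%) lay within 0.25, where 73.1% of the 5631 probes of that set did. In the same set, 3 members (5.08%) were at least 1.2-fold lower, where 17.5% of probes were, and 0 were higher, where 7.28% were. The SD of the difference over genes was 0.12 for the 69 members and 0.26 for the probes of that set, whose levels reach lower than most members' levels.

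The members' common direction depended on the scaling, and so did the share of all probes that were lower. With each array divided by its median, 45 members were lower at 24 h and 24 higher (65.2% lower, against 53.1% of all probes and 65.4% of the brightest 25%), with a median of -0.05 against -0.01 for all probes and -0.08 for the brightest 25%. With arrays divided by their 75th percentile instead, or after cyclic loess, 32 members were lower and 37 higher. Under the 75th percentile 33.2% of all probes and 55.6% of the brightest 25% were lower, and after cyclic loess 49.4% and 49.9%. After quantile normalization 34 members were lower and 35 higher, where 51.8% of all probes and 53.3% of the brightest 25% were lower. With the 1st percentile subtracted 41 members were lower and 28 higher, where 61.8% and 62.4% were lower. No common direction is therefore given for the members as a whole, and statements below on a member or a complex refer to arrays divided by their median unless a range over the scalings is given.

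**Figure D3:**
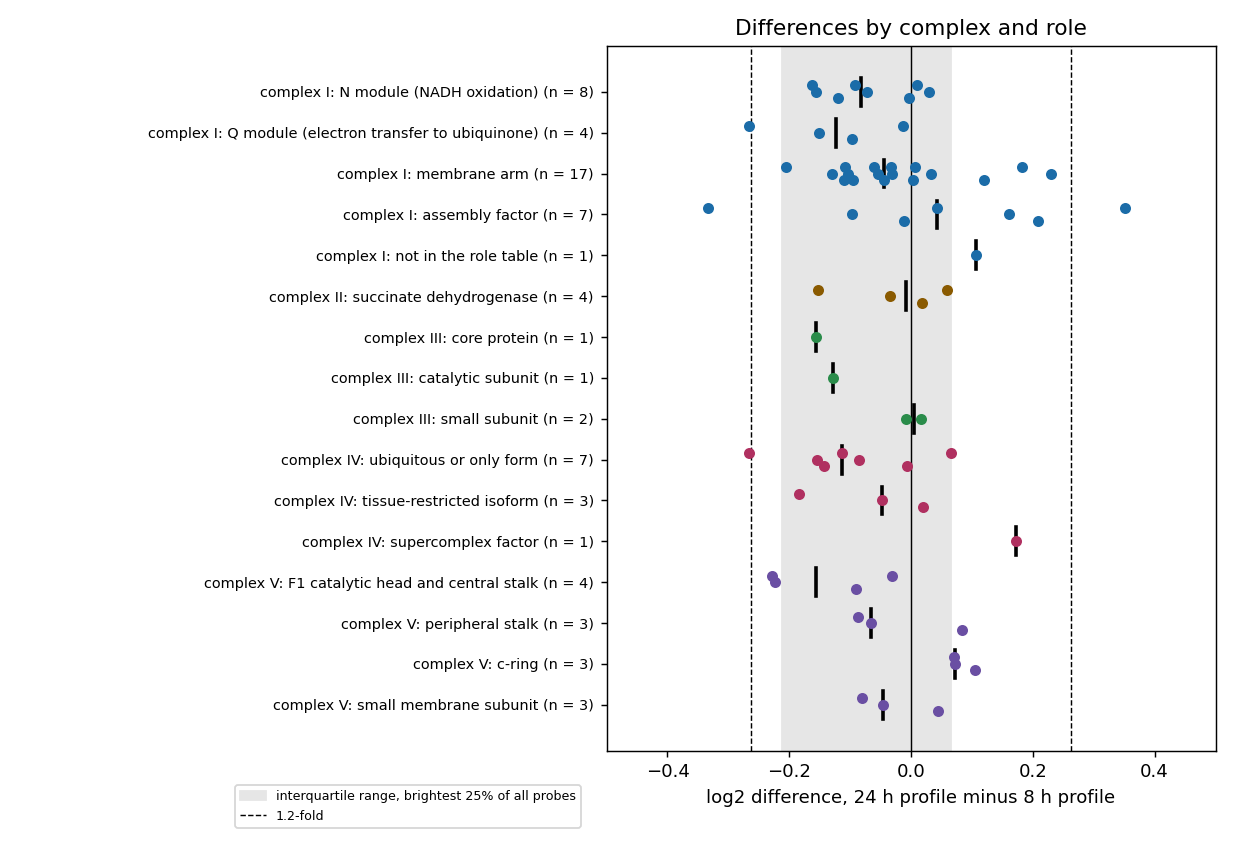
log2 difference of each gene (points, 24 h profile minus 8 h profile) by complex and role, with the median of each role as a black bar. The grey band is the interquartile range of the brightest 25% of all probes (-0.21 to 0.07), and dashed lines mark 1.2-fold. The F1 genes of complex V lie below 0 and the c-ring genes above it.

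Complex I had a median difference of -0.04 over 37 genes, with 24 lower and 13 higher. The 64.9% lower stand beside 53.1% of all probes and 65.4% of the brightest 25%. The core nuclear subunits of complex I hold the flavin, the iron-sulfur clusters and the ubiquinone site, and 6 of the 7 were measured. Of these, 5 were lower and 1 higher, with a median of -0.12. Ndufs3, which encodes a core subunit next to the ubiquinone site, stood at 44.0 (8 h) and 36.6 (24 h) times the array median, a difference of -0.27. Ndufv1, the subunit that binds NADH and the flavin, stood at 31.1 and 28.0 times (-0.16). Its partner Ndufv2 stood at 60.9 and 57.1 times (-0.09). Both are neighbours of Ndufs1, the largest iron-sulfur subunit, which was at 26.8 and 27.4 times (0.03). Ndufs7 and Ndufs8, which carry the last iron-sulfur clusters before ubiquinone, stood at 25.8 and 23.2 times (-0.15) and at 31.0 and 30.6 times (-0.01). Under the 4 other scalings 4 of these 6 core genes were lower, because Ndufs8 passed to the other side of 0, and Ndufs3 ran from -0.25 to -0.20.

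The subunits of complex I belong to 3 regions of the enzyme. Their counts stand beside 53.1% of all probes lower and 65.4% of the brightest 25% lower, the latter with a median of -0.08. In the N module, where NADH is oxidised, 6 of 8 genes were lower with a median of -0.08 (-0.09 to -0.01 over the scalings). Ndufa7 was lowest there (5.33 and 4.76 times the median, -0.16), followed by Ndufv1 and by Ndufa12 (56.5 and 52.0 times, -0.12), while Ndufa6 (-0.07), Ndufv3 (-0.0039) and Ndufs4 (0.01) lay nearer to 0. In the Q module, which passes electrons to ubiquinone, all 4 genes were lower with a median of -0.12 (-0.12 to -0.05 over the scalings, with 3 of 4 lower under each of the other 4). Its members are Ndufs3, Ndufs7, Ndufs8 and Ndufa5, an accessory subunit at 35.0 and 32.7 times the median (-0.10).

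In the membrane arm, whose subunits surround the proton channels, 11 of 17 genes were lower (64.7%, beside 53.1% of all probes and 65.4% of the brightest 25%). Their median of -0.04 was 0.000597 after quantile normalization and 0.01 after cyclic loess or division by the 75th percentile. Ndufab1, the mitochondrial acyl carrier protein, was counted here with the membrane arm, although its place in the enzyme was not examined. It was lowest at 65.7 and 57.0 times the array median (-0.21, -0.19 to -0.13 over the other scalings). Ndufb4 (-0.13), Ndufb8 (-0.11), Ndufa1 (-0.11), Ndufb9 (-0.10) and Ndufb3 (-0.10) were lower by less. Ndufb7, Ndufb6, Ndufc2, Ndufb2 and Ndufs5 lay between -0.06 and -0.03, and Ndufb5, Ndufa11 and Ndufb11 between 0.00 and 0.03. At the other end, Ndufa8 stood at 25.9 and 28.1 times (0.12).

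The highest pair of complex I subunit probes carried related names. Ndufa10, an accessory subunit of the membrane arm, stood at 38.5 (8 h) and 43.7 (24 h) times the array median (0.18), and Ndufa10l1, listed as a like gene, stood at 36.0 and 42.2 times (0.23). Both were higher under every scaling tried, Ndufa10 at 0.20 to 0.24 and Ndufa10l1 at 0.25 to 0.29 under the other 4. Probe sequences were not used here, and whether the probes detect separate transcripts was not tested. Ndufs6-ps1, the pseudogene, stood at 1.18 and 1.27 times the median (0.11).

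The 7 assembly factors of complex I, which help build the enzyme and leave it, spread more widely than the subunits around them. Ndufaf1, a factor of an early membrane intermediate, stood at 1.77 (8 h) and 2.26 (24 h) times the array median, a 1.28-fold difference and the highest of all 69 members (0.35, and 0.39 to 0.56 over the other scalings). Ndufaf4 stood at 3.65 and 2.90 times, 1.26-fold lower at 24 h and the lowest of all members (-0.33, and -0.41 to -0.24 over the other scalings). Ndufaf6 (6.15 and 7.11 times, 0.21) and Ndufaf2 (2.10 and 2.35 times, 0.16) were also on the higher side. Ndufaf5 stood at -0.10, Ndufaf7 at -0.01 and Ndufaf3 at 0.04. Over the 7 factors the SD of the difference was 0.22, against 0.11 over the 17 membrane-arm genes. It was 0.17 over all probes and 0.26 over the brightest 25%, so the factors' spread is not unusual for the array. The levels of the factors, from 1.77 to 16.2 times the median at 8 h, were also lower than those of most subunits. The part of level in this spread was not tested.

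Complex II (succinate dehydrogenase) also belongs to the citric acid cycle and has no subunit encoded in mitochondria. Sdha, the flavin subunit that oxidises succinate, stood at 25.3 (8 h) and 22.7 (24 h) times the array median (-0.15). Sdhb, the iron-sulfur subunit, stood at 36.2 and 35.4 times (-0.04). The membrane anchors Sdhc and Sdhd stood at 75.9 and 79.1 times (0.06) and at 26.3 and 26.6 times (0.02). The 4 genes were split evenly around 0, with a median of -0.01 that ran from 0.01 to 0.06 under the other scalings.

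In complex III, the core protein Uqcrc1 stood at 41.2 and 36.9 times the median (-0.16) and the Rieske iron-sulfur protein Uqcrfs1 at 68.9 and 63.1 times (-0.13). The small subunits Uqcrb (106 and 106 times, -0.01) and Uqcrh (154 and 156 times, 0.02), the latter a hinge that contacts cytochrome c1, were close to level. The median over the 4 genes was -0.07.

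Complex IV (cytochrome c oxidase) had the lowest median of the 5 complexes, -0.09 over 11 genes with 8 lower and 3 higher. It was the lowest under all 5 scalings (-0.10 to -0.03), but after quantile normalization complex III (-0.0444) was close to complex IV (-0.0465). The 72.7% lower stand beside 53.1% of all probes and 65.4% of the brightest 25%, whose median was -0.08, near that of complex IV. The measured genes of complex IV are nuclear subunits that surround the mitochondrially encoded core. Cox8a, the ubiquitous form of the small subunit VIII, stood at 157 (8 h) and 131 (24 h) times the array median, 1.2-fold lower (-0.27, and -0.25 to -0.21 over the other scalings). Cox6c (2.33 and 2.09 times, -0.15), Cox6a1 (312 and 283 times, -0.14), Cox5a (69.9 and 64.6 times, -0.11) and Cox4i1 (151 and 142 times, -0.09) were lower by less. Cox5b was level (-0.01). Cox7b stood at 77.2 and 80.8 times (0.07), and Cox7a2l, the supercomplex factor, was highest at 30.8 and 34.7 times (0.17, and 0.20 to 0.24 over the other scalings).

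Subunits VIa and VIII of complex IV have tissue isoforms. The ubiquitous Cox6a1 differed by -0.14 and its heart and skeletal muscle isoform Cox6a2, at 3.51 and 3.09 times the median, by -0.18. Cox8b, a muscle form, stood at 1.07 and 1.09 times and Cox8c, a testis form, at 0.945 and 0.914 times, both near the array median. Of 8 muscle markers, 4 were higher and 4 lower, with a median of -0.01. Their summed level was 17.1 at 8 h and 16.3 at 24 h, of which the actin gene Acta1 alone held 8.66 and 6.66 (-0.38). Of the 8, 1 lay among the brightest 25% of probes. Ckm (0.776 and 0.749 times the array median), Myh6 (1.00 and 0.980) and Tnnt1 (1.01 and 1.13) stood near or below the array median. Whether such dim probes carry signal is not known, so the split and the sum are no reading on muscle. The myosin gene Myh7 differed most, at 1.88 and 3.02 times (0.68), and the myoglobin gene Mb stood at 0.843 and 0.849 times (0.01).

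In complex V the F1 genes and the c-ring genes lay on opposite sides of 0. The 4 genes of the F1 head and central stalk, where ATP is made, were all lower, with a median of -0.16 (-0.16 to -0.10 over the scalings). All 4 lay among the brightest 25% of probes, of which 65.4% were lower with a median of -0.08, against 53.1% of all probes. Atp5f1b, the catalytic beta subunit, stood at 265 (8 h) and 226 (24 h) times the array median (-0.23). The delta subunit Atp5f1d stood at 75.0 and 64.3 times (-0.22). The alpha subunit Atp5f1a (172 and 161 times, -0.09) and the gamma subunit Atp5f1c (56.3 and 55.1 times, -0.03) were nearer to level, and Atp5f1c was at -0.01 to 0.02 under the other scalings, so that 3 of the 4 F1 genes were lower under quantile normalization, cyclic loess and the 75th percentile. The 3 genes of subunit c, copies of which form the rotating membrane ring, were all higher, with a median of 0.07 (0.07 to 0.13 over the scalings). Atp5mc1 stood at 85.6 and 92.1 times (0.11), Atp5mc2 at 37.4 and 39.3 times (0.07) and the dim Atp5mc3 at 0.07. The 3 genes are known to encode the same mature protein with different import sequences.

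The F1 median lay 0.23 log2 below the c-ring median, a gap that ran from 0.22 to 0.26 over the 5 scalings. The 2 sets are parts of the enzyme, hold 4 and 3 genes, and have no replicate check. They are also the parts of complex V with the lowest and the highest median, so the gap is between extremes. The medians of the peripheral stalk and the small membrane subunits were -0.07 and -0.05. Division by another percentile shifts both sets alike, so the steady gap is no further result. The peripheral stalk lay on both sides, with Atp5pf at -0.09, Atp5pd at -0.07 and Atp5po, known as the oligomycin-sensitivity subunit, at 178 and 188 times the median (0.08). The small membrane subunits Atp5mk (-0.08), Atp5mg (-0.05) and Atp5me (0.04) did so as well.

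**Figure D4:**
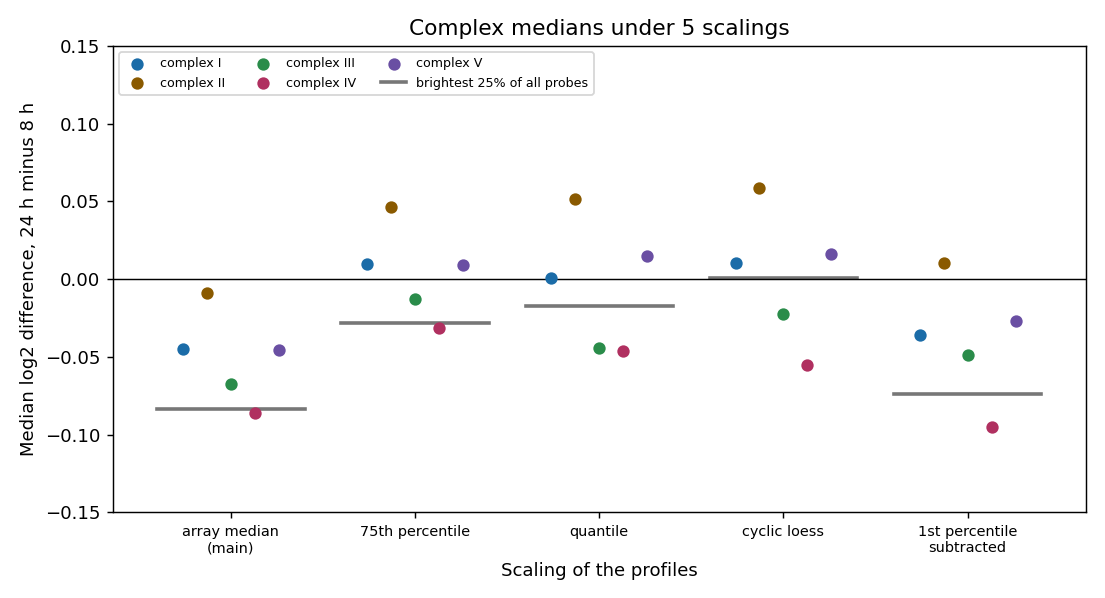
Median log2 difference (24 h minus 8 h) of each complex under 5 scalings of the profiles, with the median of the brightest 25% of all probes as a grey line. Complex IV is lowest and complex II highest under each scaling, while complexes I, II and V change side of 0.

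The deposited intensities of a time point differ only by 1 factor per array, so their spread shows these factors and no variation of genes between arrays or animals. They are given for Ndufs3, and every other member follows the same factors. At 8 h they were 3677, 3427, 3708 and 3277 in sham arrays, 3963, 3809, 3480 and 3378 in vehicle arrays and 3528, 3954, 2996 and 2873 in treatment arrays. At 24 h they were 2811, 3322, 2997 and 2844 in sham arrays, 4129, 4205, 3198 and 3030 in vehicle arrays and 3238, 3691, 3242 and 3172 in treatment arrays. The groups overlapped at each time. The first 2 values of each group came from slide 1 and the others from slide 2, and the 2 highest values of all came from vehicle arrays of slide 1 at 24 h. Sham means were 3522 ± 206 (SD, n = 4) at 8 h and 2993 ± 234 (n = 4) at 24 h. Vehicle means were 3657 ± 274 and 3641 ± 613, and treatment means 3338 ± 499 and 3336 ± 239, each over 4 arrays. These differences are the array factors and carry nothing particular to Ndufs3.

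Because the columns are proportional, the ranges of other members follow from their step between the profiles and the array medians, and their overlap is no further result. Ndufaf1 intensities ran from 116 to 160 over the 12 arrays at 8 h and from 174 to 260 over the 12 arrays at 24 h. Those of Ndufaf4 ran from 238 to 329 at 8 h and from 223 to 333 at 24 h, and those of Cox8a from 10286 to 14187 and from 10058 to 15048.

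**Figure D5:**
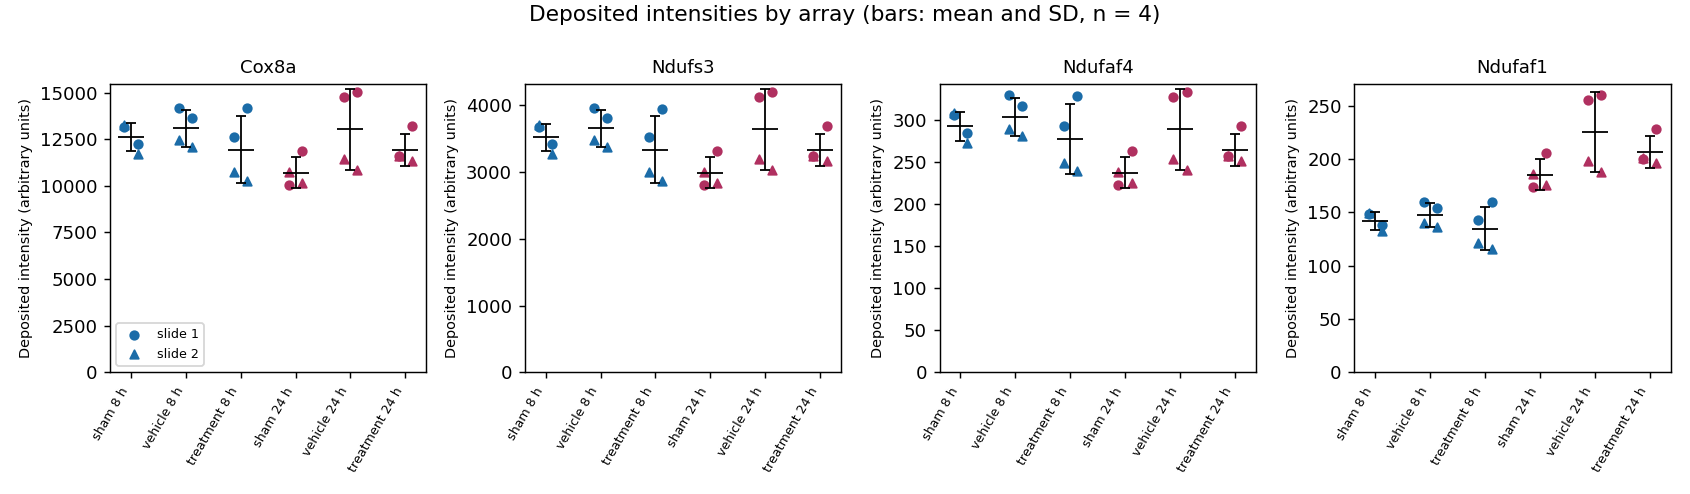
Deposited intensity of the 4 genes past 1.2-fold in each of the 24 arrays, by group, with circles for slide 1, triangles for slide 2, and the mean and SD of 4 arrays in black. The pattern over arrays of a time point is the same in every panel because the columns are proportional. The panels differ in the step from 8 h to 24 h, which is upward for Ndufaf1.

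Other mitochondrial genes were taken from lists chosen by function. Of 22 genes listed for pyruvate dehydrogenase and the citric acid cycle, 18 were lower and 4 higher, with a median of -0.13. The list also holds regulators (the Pdk genes and Pdp1) and the related genes Got2 (-0.28), Pc (-0.13) and Mdh1 (-0.09). Among all probes 53.1% were lower, and among the brightest 25%, which hold 20 of the 22 genes, 65.4% were lower with a median of -0.08. The list's median ran from -0.13 to -0.05 over the scalings, with 16 to 18 lower. The lowest was Pdp1, a phosphatase that activates pyruvate dehydrogenase, at 15.8 (8 h) and 9.53 (24 h) times the array median (-0.73), and the highest was Pdk1, a kinase that inhibits it, at 8.66 and 10.0 times (0.21). Mdh2 (-0.19), Idh3g (-0.22) and Pdhb (-0.18) were lower, whereas the citrate synthase gene Cs stood at 2.78 and 3.02 times (0.12).

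Assembly factors outside the prefix rule were split, 13 lower and 11 higher of 24, from Surf1, a factor for complex IV, at 14.5 and 11.8 times the median (-0.30) to Nubpl, which delivers iron-sulfur clusters to complex I, at 6.02 and 7.22 times (0.26). Of 12 electron carriers and related genes, 7 were lower and 5 higher. Cytochrome c (Cycs) stood at 114 and 107 times (-0.09), the ubiquinone synthesis gene Coq7 at 1.79 and 1.27 times (-0.50) and the transhydrogenase gene Nnt at 10.1 and 13.4 times (0.41). Of 17 carriers and porins, 11 were higher and 6 lower with a median of 0.04, from Slc25a10 (1.65 and 1.41 times, -0.23) to the outer membrane protein gene Tspo (4.70 and 11.3 times, 1.26), which activated microglia are known to express. The shares lower in these lists were 54.2%, 58.3% and 35.3% in turn, beside 53.1% of all probes and 65.4% of the brightest 25%.

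Among 16 regulators of mitochondrial biogenesis, 12 were lower and 4 higher, with a median of -0.08 (-0.12 to -0.03 over the scalings, with 9 to 13 lower). The 75.0% lower stand beside 53.1% of all probes and 65.4% of the brightest 25%. Pprc1, a coactivator related to PGC-1alpha, stood at 5.17 and 3.81 times the median (-0.44), the mitochondrial RNA polymerase Polrmt at 6.07 and 4.56 times (-0.41) and the PGC-1alpha gene Ppargc1a at 1.55 and 1.30 times (-0.25). Of the genes of factors whose motifs were counted, Nrf1 stood at 0.960 and 0.955 times (-0.0087) and Yy1 at 2.47 and 2.23 times (-0.15). The GABP subunit genes Gabpa and Gabpb1 stood at 1.13 and 1.26 times (0.16) and at 0.724 and 0.778 times (0.10), the latter among the dimmer probes of the array. Of 59 mitochondrial ribosomal protein genes, 30 were lower and 29 higher with a median of -0.01, from Mrps34 (-0.53) to Mrpl36 (0.49).

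Marker genes of the cells in the tissue differed by more than most members. Their counts stand beside 53.1% of all probes lower, and 65.4% of the brightest 25% lower with a median of -0.08. The brightest 25% held 8 of the 10 neuron markers and 6 of the 6 oligodendrocyte markers. A summed level adds probes of unlike brightness and is not an amount. Neuron markers were lower in 9 of 10 genes, with a median of -0.19 and a summed level of 596 at 8 h and 533 at 24 h, and stood lower in 9 of 10 under every scaling. Oligodendrocyte markers were lower in 6 of 6 (median -0.43, summed level 332 and 235). Of 7 markers of microglia and macrophages, 6 were higher (median 0.50, summed level 47.3 and 84.6), and striatum markers in 6 of 7 (median 0.54, summed level 83.3 and 120). Astrocyte markers were split, 3 and 3, with Gfap at 0.96. Endothelial markers were higher in 4 of 4 (median 0.15, with 0 to 1 lower over the scalings), but Flt1 (0.0049) and Cldn5 (0.03) were close to level. Choroid plexus markers were higher in 4 of 5, with Ttr at 2.56. Their median of 0.29 was the value of Folr1, a dim probe at 0.794 and 0.973 times the array median. Kl (0.853 and 0.898 times) was also below the array median. Over the scalings the median of the choroid plexus markers ran from 0.29 to 1.47. Erythroid genes were lower in 3 of 5 (median -0.40). The neuron markers Snap25, Syt1 and Syp stood at 140, 149 and 113 times the array median at 8 h. The part of these markers in the members' differences was not tested.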

How the data were processed

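RNA from 24 samples was measured on Illumina rat Ref-12 version 1 beadchips, per the labels. The authors deposited linear intensities for 22523 probes, which were the values used, 1 column for each sample. Their background correction and normalization are not given in the sources used here. Another table, not normalized, has 24 columns named by running number, which match no sample and were not used. Groups and replicate numbers came from the sample titles. Each column was divided by its median, and the 12 columns of a time point, which are proportional, were reduced to 1 profile by the median. The limma models planned for groups could not be fitted to proportional columns, so no p-value is given. Group means rest on 4 arrays each, and within a time point they differ only by the array factors.

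Of the probes, 13793 had 1 gene symbol in the platform annotation, 8730 had none and 0 had several. All 69 members had their gene identifier in the reference table (GRCr8), and 0 symbols differed. The members and lists were chosen with earlier results of these data known. Genes were named by rule: in each complex the 3 highest and 3 lowest differences, members past 1.2-fold, isoforms, complex II and the core of complex I. Others were named to account for every member. In the other mitochondrial lists, the highest and lowest were named, and further genes, markers included, were chosen after their values were seen. For list genes with several probes the brightest was used. Alternatives were quantile normalization and cyclic loess (limma 3.58.1 in R 4.3.3), the 75th percentile, the 1st percentile subtracted (lowest value allowed 8), 1 probe per gene, probes above the median, structural subunits only, and each replicate left out. The profile step was tested on simulated data. Other steps used Python 3.11.15.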

Additional observations from a re-analysis of the deposited data

Results flagged for a closer look

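The array median intensity, which every oxidative phosphorylation gene follows, had 1 array far from the other 3 in the 24 h treatment group. The 4 medians ran from 86.7 to 101, and the gap of the highest to its nearest neighbour was 0.866 of the range, above Dixon's 95% critical value for 4 samples. The other 5 groups lay below it. Chance alone is expected to give such a gap in about 1 group in 20, and 6 groups were examined. Levels relative to the array median are not touched by it.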

How the results depend on the processing

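No paired analysis was possible because the columns of a time point are proportional, so that no gene varies between arrays apart from the array's factor. For the same reason, leaving out each replicate number in turn changed no median or count, as the construction of the table requires. Counting 1 probe per gene changed nothing, since each gene has 1 probe. With quantile normalization the median difference was 0.000597 over all members, 0.000597 for complex I, 0.0513 for II, -0.0444 for III, -0.0465 for IV and 0.0150 for V, with 3 members at least 1.2-fold higher and 1 lower. With cyclic loess the medians were 0.0116, 0.0106, 0.0585, -0.0225, -0.0550 and 0.0162 in the same order, with 3 higher and 0 lower. With the 75th percentile they were 0.00900, 0.010, 0.0461, -0.0126, -0.0315 and 0.00900, with 3 higher and 1 lower, and this scaling moved the median of all probes to 0.05. With the 1st percentile subtracted they were -0.0360, -0.0360, 0.0104, -0.0488, -0.0954 and -0.0272, with 2 higher and 2 lower, and the median of all probes was -0.10. Without probes below the median of all probes, complex IV stood at -0.0999 and complex V at -0.0556. With structural subunits only, the medians were -0.0577 over all, -0.0615 for complex I and -0.0999 for complex IV, with 0 members at least 1.2-fold higher. The cause of these shifts was not tested, and the share of all probes past 1.2-fold was not computed under the other scalings.

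Ndufa10l1 and Ndufaf6 passed 1.2-fold under 3 of the 4 other scalings. Subtraction of the 1st percentile took the dim probes of Ndufb4 to -0.50 and Atp5mc3 to 0.27. Between 6 and 15 of the 69 members changed side of 0 with the scaling. Within 0.25 log2 lay 94.2% of members after quantile normalization, where 76.1% of the brightest 25% of probes did, and 88.4% after subtraction of the 1st percentile, where 69.2% did.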
